A study of Homo sapiens with 10 samples.

Results

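The acyl-CoA synthetases, lipins and triglyceride storage genes were followed in QGP-1 cells as 10 named genes: ACSL1, ACSL3, ACSL4, ACSL5, LPIN1, LPIN2, LPIN3, DGAT1, DGAT2 and PLIN2. They were chosen by gene name from the 35606 gene IDs in the expression tables, and each name matched 1 ID. With a minimum mean of 1 CPM (counts scaled to library size, here by the TMM method) over the samples of a table, 9 of the 10 were tested, and ACSL5 was set aside. The study used RNA-seq to ask how loss of the lipid kinase PIKfyve and inhibition of mTOR affect lipid homeostasis in gastroenteropancreatic neuroendocrine tumors. It holds 10 samples in 5 groups of 2.

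All groups are QGP-1 cells, an established line from a human neuroendocrine tumor of the pancreas. For the knockdown, cells carried CRISPR interference (CRISPRi), in which nuclease-dead Cas9 joined to the KRAB repressor (dCas9-KRAB) is directed to a gene by a guide RNA, with puromycin used to select the infected cells. One group received the guide sgPIKFYVE-1 and its control the guide sgNC, so the knockdown rests on a single guide, and whether the lines were pools or clones is not given in the sources used here. For the drugs, cells were given DMSO, apilimod (a PIKfyve inhibitor) at 1 µM or Torin-1 (an ATP-competitive mTOR inhibitor) at 100 nM. The labels give 24 h of treatment, and figure legends for the same RNA-seq give 8 h. Library preparation is also described in 2 ways, as poly(A) selection and as depletion of ribosomal RNA. Nothing states that the 2 samples of a group were separate cultures, so p-values measure the spread between these samples, which may be technical.

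Long-chain acyl-CoA synthetases join coenzyme A to free fatty acids, which commits them to esterification, oxidation or membrane lipids. Lipins remove the phosphate from phosphatidate to give diacylglycerol, and the diacylglycerol acyltransferases DGAT1 and DGAT2 add the last acyl chain to make triglyceride, which is stored in lipid droplets coated by perilipins such as PLIN2. Several genes of this route, among them ACSL and lipin genes, are known targets of sterol regulatory element-binding proteins.

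The step between the lowest values put the depth at an estimated 9.3 to 13.6 M reads a sample, where 3 reads are worth 0.227 to 0.329 CPM, a limit for counting error only. PIKFYVE itself, on chromosome 2, was at 97.5 and 101 CPM with sgNC and at 10.9 and 12.5 CPM with sgPIKFYVE-1, so the label of the knockdown held in both samples. With DMSO, apilimod and Torin-1 its means were 70.9, 82.8 and 77.1 CPM. Of 10 neuroendocrine markers, 9 were at 1 CPM or more in both samples of every group, and their summed level ranged from 6760 CPM with sgPIKFYVE-1 to 10900 CPM with Torin-1. Adipocyte markers (ADIPOQ, LEP, FABP4, PLIN1 and CIDEC) summed to at most 0.836 CPM and hepatocyte markers (ALB, APOA1, APOB and TTR) to at most 0.652 CPM. Fibroblast markers summed to between 2.01 and 10.4 CPM, with LUM at 0 throughout, endothelial markers to at most 3.93 CPM and immune markers to at most 2.4 CPM, with CD3E at 0 throughout. The part of these markers in the results was not tested.

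ACSL1, which feeds fatty acids to triglyceride synthesis and to oxidation depending on the tissue, had the largest increase of the genes followed here with either way of blocking PIKfyve. ACSL4, which prefers arachidonate and other polyunsaturated fatty acids and is known for its part in ferroptosis, rose beside it. LPIN1 rose with apilimod and fell in the knockdown, and PLIN2 fell in the knockdown. Torin-1 lowered ACSL1, ACSL3 and ACSL4 modestly and raised LPIN2. The plot of values by sample shows these levels for each gene.

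**Figure D1:**
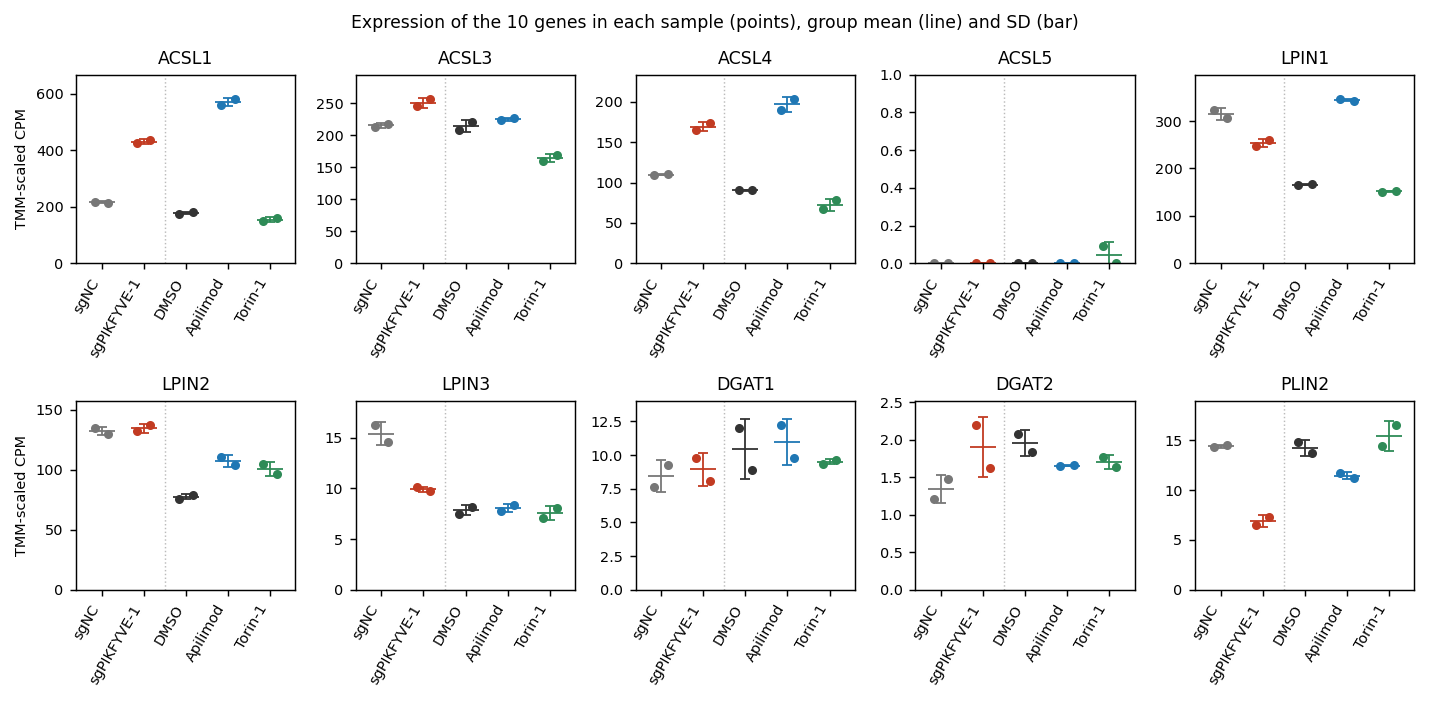
TMM-scaled CPM (vertical axis, from 0, a scale for each gene) of the 10 genes in the 2 samples of each group (points), with the group mean (line) and SD (bar); the dotted line parts the separately normalized knockdown and drug tables. ACSL1 reached 560 and 580 CPM with apilimod against 176 and 182 CPM with DMSO, and ACSL5 stayed at or under 0.0932 CPM in every sample.

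The sequences before the start sites of the genes with the largest changes are shown because these genes moved together with apilimod. They are from RefSeq promoter windows on GRCh38.p14, which were used for 7 of the 10 genes with 15 start sites. For each of these 3 genes 1 window is shown, the first listed. Its longest stretch that overlaps no exon of GENCODE release 29 is printed, 5′ to 3′ on the strand of the gene. ACSL1 has 5 windows and LPIN1 has 3, so their other windows are not shown. The motif match of ACSL1 given below lies in another window. Which start site QGP-1 cells use is not known from these files. The stretches are chr4:184826120-184826218 (reverse strand, 99 bases) for ACSL1, chrX:109733404-109733507 (reverse strand, 104 bases) for ACSL4 and chr2:11746382-11746587 (forward strand, 206 bases) for LPIN1.
ACSL1: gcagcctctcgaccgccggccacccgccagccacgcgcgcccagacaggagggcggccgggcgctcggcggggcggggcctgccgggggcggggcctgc
ACSL4: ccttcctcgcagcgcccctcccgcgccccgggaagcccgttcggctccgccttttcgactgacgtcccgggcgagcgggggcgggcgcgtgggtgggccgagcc
LPIN1: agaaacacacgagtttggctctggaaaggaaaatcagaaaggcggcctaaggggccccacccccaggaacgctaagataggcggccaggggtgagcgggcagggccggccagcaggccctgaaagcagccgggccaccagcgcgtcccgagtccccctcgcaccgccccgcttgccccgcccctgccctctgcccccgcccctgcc
The motifs searched, on both strands in the 250 bases before each start, were the sterol regulatory element core TCACNCCAC, the E-box CACGTG and the CLEAR core TCACGTGA, which contains the E-box. None of them lay in the windows of ACSL4 or LPIN1, and in those of ACSL1 only the sterol regulatory element core was found, 242 bases before the start of 1 of its 5 windows. Over all 35116 windows, 0.883% held the sterol regulatory element core, 6.34% the E-box and 0.854% the CLEAR core. An E-box lay 210 bases before a start of LPIN2 and 69 bases before the start of PLIN2, and no CLEAR core was found in the 15 windows. The matches are printed with the motif in capitals, the one of ACSL1 reading as the reverse complement of the core, and lie at chr4:184805779-184805803, chr18:3013341-3013362 and chr9:19127548-19127569, all on the reverse strand. The match of PLIN2 lies outside the stretch of its window that is free of annotated exons, and that of ACSL1 lies partly outside it.
ACSL1: gtggagcaGTGGGGTGActttgctg
LPIN2: gcgcgcgtCACGTGgctggggc
PLIN2: ccgcgggtCACGTGctgcggag
These matches are letters in a window, and no binding was measured here.

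ACSL1 (ENSG00000151726.14) lies on chromosome 4 from 184755595 to 184826818 on the reverse strand of GRCh38 in GENCODE release 29. Its values were 218 and 213 CPM with sgNC and 425 and 436 CPM with sgPIKFYVE-1. Both knockdown samples lay well above both controls, at 2-fold the control mean, with a log2 fold change of 0.99 (standard error 0.0464, 95% interval 0.9 to 1.09, adjusted p = 3.01e-12). This and all following adjusted p-values are from limma on log2(CPM + 1) adjusted by Benjamini-Hochberg across every gene tested in the table.
With DMSO the ACSL1 values were 176 and 182 CPM, with apilimod 560 and 580 CPM and with Torin-1 149 and 160 CPM. The 3 groups did not overlap, apilimod standing far above DMSO and Torin-1 below it. Apilimod against DMSO gave a log2 fold change of 1.66 (95% interval 1.55 to 1.78, adjusted p = 2.77e-11), a 3.18-fold higher mean, and ranked 47 from the highest of the 13520 genes tested. Torin-1 against DMSO gave -0.21 (95% interval -0.32 to -0.1, adjusted p = 0.00598), and the mean fell by 13.7%. The Torin-1 call for ACSL1 was lost without DMSO replicate 2 (adjusted p = 0.0709) and with a variance not tied to expression (adjusted p = 0.0805).

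ACSL4 (ENSG00000068366.19; chromosome X from 109624244 to 109733403, reverse strand) was at 109 and 110 CPM with sgNC and at 165 and 173 CPM with sgPIKFYVE-1. Both knockdown samples were higher, by 0.62 on the log2 scale (standard error 0.0569, adjusted p = 4.7e-08). In the drug samples ACSL4 was at 90.2 and 90.8 CPM with DMSO, 190 and 203 CPM with apilimod and 67.5 and 77.9 CPM with Torin-1. The order of the groups was that of ACSL1, again with no overlap. The log2 fold change was 1.11 with apilimod (standard error 0.0731, adjusted p = 1.43e-07) and -0.32 with Torin-1 (adjusted p = 0.00381). With a variance not tied to expression the Torin-1 call was lost (adjusted p = 0.0533).

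ACSL3 (ENSG00000123983.14), an endoplasmic reticulum and lipid droplet enzyme, was at 212 and 218 CPM with sgNC and at 245 and 256 CPM with sgPIKFYVE-1. The knockdown samples were above the controls by a small margin, 0.22 on the log2 scale (95% interval 0.12 to 0.33, adjusted p = 0.00145), and with a variance not tied to expression this did not pass (adjusted p = 0.0888). Values were 208 and 221 CPM with DMSO, 223 and 226 CPM with apilimod and 160 and 169 CPM with Torin-1. Apilimod samples lay just above DMSO, with a log2 fold change of 0.07 (95% interval -0.05 to 0.19, adjusted p = 0.55) that did not pass the test, whereas with Torin-1 the mean fell by 23.2% (log2 fold change -0.38, adjusted p = 0.000126).
ACSL5 (ENSG00000197142.10), a synthetase abundant in intestine and liver, was at 0 in 9 of the 10 samples and at 0.0932 CPM, the worth of 1 read, in Torin-1 replicate 1. This is below what 3 reads give at any of these depths, so ACSL5 was not detectable here. Its exons overlap those of ZDHHC6 on the opposite strand, and whether the counting used strand is not given in the sources used here.

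Among the lipins, LPIN1 (ENSG00000134324.11; chromosome 2 from 11677595 to 11827409, forward strand) encodes a phosphatidate phosphatase that is also a transcriptional coregulator. It was at 323 and 306 CPM with sgNC and at 247 and 259 CPM with sgPIKFYVE-1. The knockdown samples were lower without overlap, and the mean fell by 19.6% (log2 fold change -0.31, standard error 0.0493, adjusted p = 4.15e-05). LPIN1 in the drug table was at 165 and 167 CPM with DMSO, 346 and 343 CPM with apilimod and 151 and 153 CPM with Torin-1. Apilimod raised it to 2.07-fold the DMSO mean (log2 fold change 1.05, standard error 0.0502, adjusted p = 3.35e-09). The Torin-1 samples lay below DMSO without overlap, with a log2 fold change of -0.12 (95% interval -0.23 to -0.02) that did not pass the test (adjusted p = 0.0655).
The knockdown and apilimod thus moved LPIN1 in opposite directions. The 2 tables were normalized separately, and the difference between them was not tested. The LPIN1 mean with sgNC, 315 CPM, was close to that with apilimod, 345 CPM, while the DMSO mean was 166 CPM; guide and drug controls differ in treatment history and table, which cannot be told apart.

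LPIN2 (ENSG00000101577.9), a lipin of liver and other tissues, was at 135 and 130 CPM with sgNC and at 132 and 137 CPM with sgPIKFYVE-1. These groups overlapped, with a log2 fold change of 0.02 (95% interval -0.1 to 0.14, adjusted p = 0.78). Values were 75.9 and 79 CPM with DMSO, 111 and 104 CPM with apilimod and 105 and 96.6 CPM with Torin-1. Both drugs raised LPIN2 above DMSO, by 0.47 with apilimod (95% interval 0.32 to 0.62, adjusted p = 0.000456) and 0.38 with Torin-1 (95% interval 0.23 to 0.53, adjusted p = 0.000765) on the log2 scale. It was the only gene of the 9 tested that passed in the upward direction with both drugs, and the drug groups share their DMSO samples.
LPIN3 (ENSG00000132793.11) had the lowest level of the lipins per kb of exon in every group. Its level was 16.2 and 14.6 CPM with sgNC and 10.1 and 9.72 CPM with sgPIKFYVE-1, a fall without overlap (log2 fold change -0.59, 95% interval -0.9 to -0.28, adjusted p = 0.00332). The drug samples all lay between 7.07 and 8.38 CPM and overlapped, with log2 fold changes of 0.04 for apilimod (95% interval -0.3 to 0.38) and -0.05 for Torin-1 (95% interval -0.39 to 0.29). A lipin change with the guide was thus called for LPIN1 and LPIN3, and with apilimod for LPIN1 and LPIN2.

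The enzymes of the last step of triglyceride synthesis were low and did not pass the test in any comparison. DGAT1 (ENSG00000185000.12) was at 7.6 and 9.3 CPM with sgNC, 9.81 and 8.09 CPM with sgPIKFYVE-1, 12 and 8.87 CPM with DMSO, 12.2 and 9.75 CPM with apilimod and 9.36 and 9.62 CPM with Torin-1. Each treated group overlapped its control, and the 95% intervals of the log2 fold change were -0.3 to 0.45 for the knockdown, -0.29 to 0.44 for apilimod and -0.47 to 0.25 for Torin-1. DGAT1 exons overlap those of HSF1 on the opposite strand, whose level reached 25.5 CPM, and without knowing whether strand was used the reads of the shared stretch cannot be told apart.
DGAT2 (ENSG00000062282.15), which belongs to another protein family than DGAT1, was at 1.21 and 1.48 CPM with sgNC, 2.19 and 1.62 CPM with sgPIKFYVE-1, 2.08 and 1.83 CPM with DMSO, 1.65 and 1.66 CPM with apilimod and 1.77 and 1.64 CPM with Torin-1. The knockdown samples lay above and the drug samples below their controls, but the intervals were wide, -0.31 to 0.91 for the knockdown, -0.66 to 0.36 for apilimod and -0.64 to 0.38 for Torin-1. These samples thus leave the direction of any DGAT2 change unsettled, and the smallest change they could detect was not computed.

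PLIN2 (ENSG00000147872.10; chromosome 9 from 19108375 to 19149290, reverse strand) was at 14.3 and 14.5 CPM with sgNC and at 6.47 and 7.34 CPM with sgPIKFYVE-1. Both knockdown samples lay far below both controls, and the mean fell by 52% (log2 fold change -0.96, standard error 0.161, 95% interval -1.3 to -0.63, adjusted p = 8.28e-05). With DMSO PLIN2 was at 14.8 and 13.7 CPM, with apilimod at 11.7 and 11.2 CPM and with Torin-1 at 14.4 and 16.5 CPM. Both apilimod samples lay below both DMSO samples, with a log2 fold change of -0.29 (95% interval -0.57 to 0) that did not pass the test (adjusted p = 0.227), and Torin-1 overlapped DMSO (log2 fold change 0.1, adjusted p = 0.576).

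In the knockdown 3 of the 9 genes tested were higher (ACSL1, ACSL3 and ACSL4) and 3 were lower (LPIN1, LPIN3 and PLIN2), where 21.6% of all genes tested were called higher and 20.9% lower. With 9 genes, these shares are too close to the background to be a result about the genes. With apilimod 4 of 9 were called higher (ACSL1, ACSL4, LPIN1 and LPIN2) and 0 lower, where 5.75% of all genes were called higher and 2.79% lower. With Torin-1 1 of 9 was called higher and 3 lower, where 16.6% and 21.8% of all genes were called. The median log2 fold change of the 9 genes was 0.07 in the knockdown, 0.07 with apilimod and -0.12 with Torin-1, beside 0, -0.01 and -0.01 over all genes. These counts and medians describe genes that were chosen with earlier results known.
The apilimod background depends on the scaling and on the samples. Of the called genes 778 were higher and 377 lower, against 658 and 536 after quantile normalization and 665 and 562 with each sample rescaled to an equal sum. Without DMSO replicate 1, DMSO replicate 2 or apilimod replicate 1, the genes called in either direction numbered 656, 596 and 688.

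**Figure D2:**
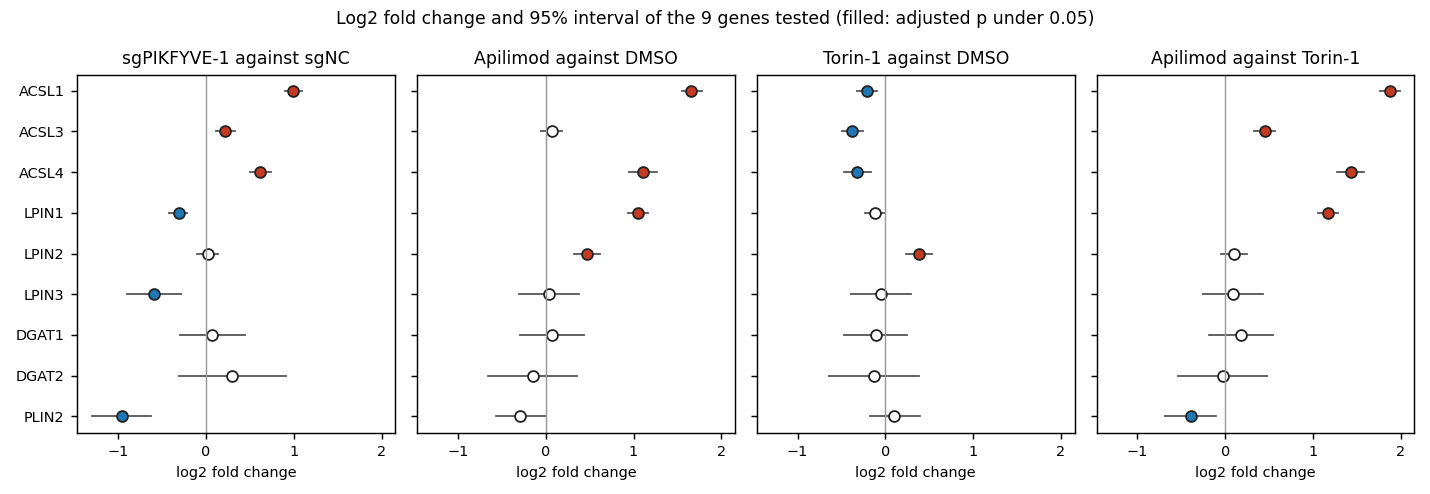
Log2 fold change (horizontal axis, on log2(CPM + 1)) with its 95% interval for the 9 genes tested (rows) in 4 comparisons (panels); filled points passed an adjusted p of 0.05, red for higher and blue for lower, and open points did not pass. ACSL1 is farthest to the right with apilimod, at 1.66 against DMSO and 1.88 against Torin-1, and the intervals of DGAT1 and DGAT2 span 0 in all 4 panels.

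The direct contrast of the drugs asks whether PIKfyve and mTOR inhibition left these genes at different levels. ACSL1 was higher with apilimod than with Torin-1 by 1.88 on the log2 scale (adjusted p = 2.65e-12), ACSL4 by 1.43 (adjusted p = 2.36e-09), LPIN1 by 1.17 (adjusted p = 3.43e-10) and ACSL3 by 0.45 (adjusted p = 1.82e-05). PLIN2 was lower with apilimod (log2 fold change -0.39, adjusted p = 0.0258), but this call was lost without Torin-1 replicate 2 (adjusted p = 0.161), without apilimod replicate 1 (adjusted p = 0.0635), without apilimod replicate 2 (adjusted p = 0.101) and with no filter on low values (adjusted p = 0.0675). LPIN2, raised by each drug over DMSO, had a difference of 0.1 (95% interval -0.05 to 0.25, adjusted p = 0.28). Of the 9 genes 4 were called higher and 1 lower with apilimod, where 26.2% and 20.5% of all genes were called, with a median of 0.18 beside 0.02 over all genes. The doses differ between the drugs, so the contrast compares these treatments as given.

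Levels were compared between genes as CPM per kb of the joined exons of protein-coding transcripts, since longer transcripts give more reads. With DMSO the order was ACSL3 (35.8 CPM per kb), ACSL1 (33.6), LPIN1 (25.5), ACSL4 (16.6), LPIN2 (11.6), PLIN2 (5.64), DGAT1 (2.81), LPIN3 (1.8) and DGAT2 (0.7), and the ranges of neighbours did not overlap. With sgNC LPIN1 stood first at 48.2 CPM per kb, ahead of ACSL1 at 40.5 and ACSL3 at 35.9, while ACSL4 (20.1) and LPIN2 (19.9) overlapped. ACSL1 led after the block of PIKfyve, at 80.8 CPM per kb with sgPIKFYVE-1 and 107 CPM per kb with apilimod. With Torin-1 ACSL1 (29) and ACSL3 (27.5) overlapped. In the knockdown DGAT1 (2.41) overlapped both PLIN2 (2.73) and LPIN3 (2.27), whose own ranges were apart.

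**Figure D3:**
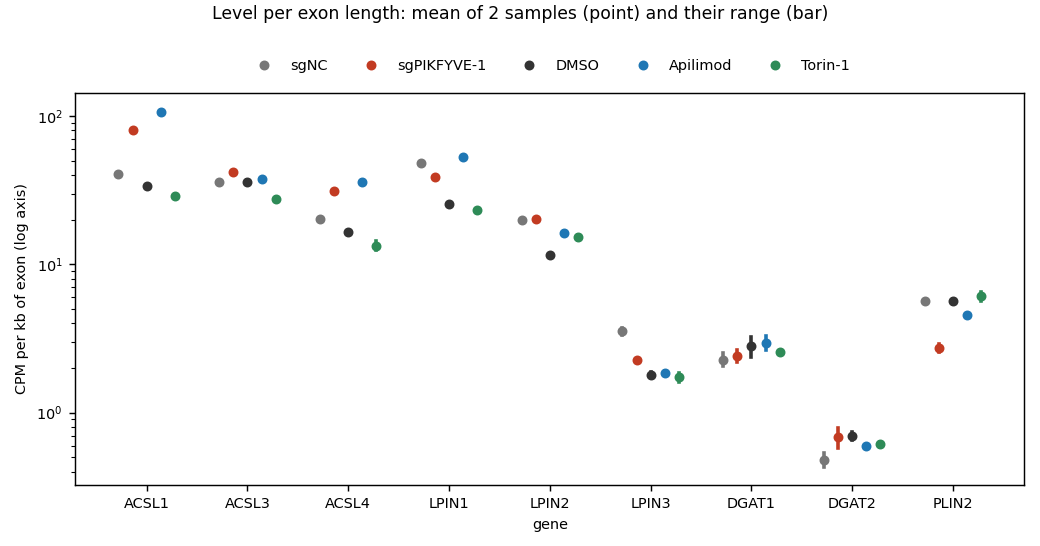
Level in CPM per kb of exon (vertical log axis) of the 9 genes above the filter, mean of the 2 samples of a group (point) and their range (bar, often smaller than the point), coloured by group. ACSL1, ACSL3, ACSL4, LPIN1 and LPIN2 lie above 11 CPM per kb in every group, and DGAT2 is lowest with means between 0.482 and 0.7 CPM per kb.

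Genes most like ACSL1, ACSL4 and LPIN1 were sought among 13234 genes tested in both tables, by Pearson's r over the 10 samples, each less the control mean of its own table. These values are a description, and the 10 points share 2 sets of controls. For ACSL1 they were CDHR1 (r = 0.993), PGD (0.993), an enzyme of the pentose phosphate pathway, and PRUNE2 (0.991). For ACSL4 they were FAM45A (0.996), HMGCS1 (0.994), the cholesterol synthesis enzyme, and PRXL2A (0.993). For LPIN1 they were HSD17B7P2 (0.991), a pseudogene whose reads may be shared with its parent gene, MLXIPL (0.982), which encodes a carbohydrate-responsive transcription factor, and MAPK3 (0.977).

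The other genes of the route were taken from 6 lists of 79 symbols. In the knockdown 51 had a mean of at least 1 CPM, of which 13 were called higher and 10 lower, beside 21.6% and 20.9% of all genes, so the knockdown count is about the background. With apilimod 5 of 52 were higher and 1 lower, beside 5.75% and 2.79% of all genes. With Torin-1 4 of 52 were higher and 11 lower, beside 16.6% and 21.8% of all genes. The lists below are described against the same shares, and with 2 to 15 genes tested in each, their counts are no result about a list. Their median log2 fold changes were 0.04, 0.04 and -0.07. Over all genes the median log2 fold change was 0 in the knockdown and -0.01 with each drug. The 23 calls of the knockdown fell to 15 with no filter on low values and 13 with a variance not tied to expression, and the 15 calls with Torin-1 fell to 8 with no filter or without DMSO replicate 2.

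Other acyl-CoA synthetases had 2 of 12 higher and 3 lower in the knockdown, 2 of 14 higher and 1 lower with apilimod, and 2 of 14 higher and 2 lower with Torin-1. Over all genes the shares called higher and lower were 21.6% and 20.9% in the knockdown, 5.75% and 2.79% with apilimod and 16.6% and 21.8% with Torin-1, and the knockdown and Torin-1 counts are near them. ACSS2, which activates acetate, rose most of all genes tested with apilimod, from 12.4 and 10.5 CPM with DMSO to 148 and 133 CPM (log2 fold change 3.51, adjusted p = 3.7e-11). In the knockdown ACSS2 went from 24.4 and 26 CPM to 46.5 and 41.5 CPM (0.78, adjusted p = 3.23e-06). ACSF2 had the largest knockdown change of this list (1.16, adjusted p = 0.00752), but from a low level. It was at 0.556 and 0.262 CPM with sgNC and at 2.74 and 1.62 CPM with sgPIKFYVE-1. SLC27A3, a fatty acid transport protein, fell with both drugs, by 0.82 with apilimod (adjusted p = 0.000327) and by 0.56 with Torin-1 (adjusted p = 0.00189) on the log2 scale. ACSL6, the remaining member of the ACSL family, fell in the knockdown from 24.2 to 13.8 CPM (-0.77, adjusted p = 9.39e-05). It rose with Torin-1 from 18.3 to 27.3 CPM (0.55, adjusted p = 0.0128). This Torin-1 call was lost without DMSO replicate 1 (log2 fold change 0.426) or Torin-1 replicate 1 (0.414).
Synthesis and conversion of phosphatidate, the substrate of lipins, had 4 of 15 higher and 2 lower in the knockdown, 0 called with apilimod and 3 lower with Torin-1, of 15 tested each time. The 4 higher in the knockdown and the 3 lower with Torin-1 are close to the shares over all genes, 21.6% and 21.8%. GPAT4, a glycerol-3-phosphate acyltransferase of the endoplasmic reticulum, was at 452 and 460 CPM with sgNC and at 186 and 174 CPM with sgPIKFYVE-1 (-1.34, adjusted p = 6.78e-14). In the drug table GPAT4 was at 99.4 and 101 CPM with DMSO, 101 and 98.5 CPM with apilimod and 69 and 64.6 CPM with Torin-1 (-0.58 for Torin-1, adjusted p = 1.45e-05). The sgNC level was thus far above that in every other group, in a table normalized on its own. GPAM, the mitochondrial enzyme of the same step, fell with Torin-1 from 34.8 to 17.5 CPM (-0.95, adjusted p = 6.35e-06).

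Lipid droplet proteins had 3 of 9 higher and 1 lower in the knockdown, 0 of 8 called with apilimod and 3 of 8 lower with Torin-1, where 21.6% of all genes were higher and 20.9% lower in the knockdown and 21.8% were lower with Torin-1. PLIN3, a perilipin like PLIN2, fell in the knockdown from 26.3 to 17.1 CPM (-0.59, adjusted p = 0.000575), and HILPDA, an inhibitor of adipose triglyceride lipase, rose from 22.8 to 32.8 CPM (0.51, adjusted p = 0.000669). With Torin-1 PLIN3 (-0.52), FITM2 (-0.45) and HILPDA (-0.35) passed the test, but without DMSO replicate 2 their adjusted p-values were 0.182, 0.146 and 0.143 and without DMSO replicate 1 they were 0.0504, 0.121 and 0.102. Leaving out a Torin-1 sample also ended these calls, without replicate 1 for PLIN3 (adjusted p = 0.105) and FITM2 (0.39) and without replicate 2 for PLIN3 (0.0579) and HILPDA (0.212), and the FITM2 call was lost without apilimod replicate 1 (0.0558) or replicate 2 (0.0554). Among lipolysis genes 2 of 7 were higher and 2 lower in the knockdown, 2 higher with apilimod, and 1 higher and 1 lower with Torin-1. The knockdown and Torin-1 counts for lipolysis are about the background of 21.6% higher and 20.9% lower, and of 16.6% and 21.8%, while 5.75% of all genes were higher with apilimod. LIPA, the lysosomal acid lipase, rose in the knockdown from 140 to 219 CPM (0.64, adjusted p = 2.24e-08) and with apilimod from 149 to 263 CPM (0.81, adjusted p = 1.55e-06), and fell with Torin-1 to 124 CPM (-0.27, adjusted p = 0.00587, but 0.0597 without DMSO replicate 2). PNPLA3, a lipid droplet hydrolase, rose with apilimod from 1.53 to 7.39 CPM (1.75, adjusted p = 0.000367). PNPLA2, the adipose triglyceride lipase, rose with Torin-1 from 38.2 to 62.6 CPM (0.7, adjusted p = 5.45e-05) and fell in the knockdown from 55.6 to 40.4 CPM (-0.46, adjusted p = 0.000695, but 0.062 with a variance not tied to expression).
For fatty acid uptake and binding, 1 of 6 was higher and 2 lower in the knockdown, 1 higher with apilimod and 2 lower with Torin-1, beside 21.6% and 20.9%, 5.75% and 21.8% of all genes. DBI, the acyl-CoA binding protein, rose from 148 to 221 CPM in the knockdown (0.57, adjusted p = 9.25e-08) and from 191 to 291 CPM with apilimod (0.61, adjusted p = 4.65e-06), and fell to 87.5 CPM with Torin-1 (-1.12, adjusted p = 4.16e-09). FABP5, a fatty acid binding protein, fell in the knockdown (-0.57, adjusted p = 1.14e-06) and with Torin-1 (-0.71, adjusted p = 4.5e-06). CD36 of the same list fell in the knockdown from 16.8 to 9.81 CPM (-0.72, adjusted p = 0.00058). Of the other acyltransferases making neutral lipid only 2 of 9 were tested, of which SOAT1, which esterifies cholesterol, rose in the knockdown from 19.5 to 29.9 CPM (0.6, adjusted p = 0.000211), TMEM68 was just past the threshold with Torin-1 (0.38, adjusted p = 0.0448) and none was called with apilimod. The TMEM68 call was lost without any one of the DMSO and Torin-1 samples (adjusted p = 0.0627 and 0.236 without DMSO replicates 1 and 2, 0.218 and 0.052 without Torin-1 replicates 1 and 2).

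**Figure D4:**
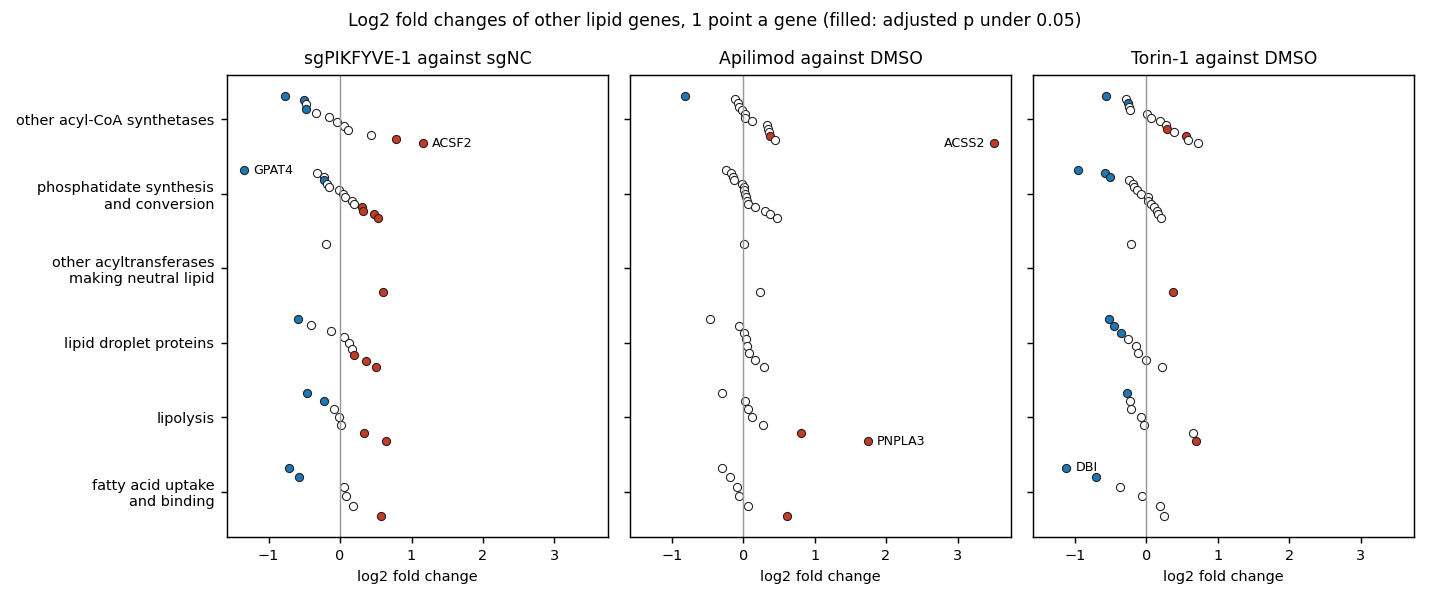
Log2 fold change (horizontal axis, on log2(CPM + 1)) of the other genes of the route by list (rows), 1 point a gene, in the 3 comparisons with a control (panels); filled points passed an adjusted p of 0.05, red for higher and blue for lower, and called genes at a change of at least 1 are named. ACSS2 stands apart at 3.51 with apilimod, GPAT4 at -1.34 in the knockdown and DBI at -1.12 with Torin-1.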

How the data were processed

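RNA-seq of 10 QGP-1 samples was analysed, 2 in each of 5 groups taken from the sample titles. The authors trimmed reads, quantified transcripts, summed them to genes and applied TMM normalization. The deposited values are a signal on the CPM scale, in separately normalized tables for knockdown and drugs; sample sums ranged from 972493 to 1024332. The quantifier is not given in the sources used here. The submitters' processing notes name hg38 and bcl2fastq 2.20. Of the low values 65.1% to 68.9% were whole reads within 0.01, not enough to rebuild counts for a count test.

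Genes averaging 1 CPM or more in a table were tested on log2(CPM + 1), which understates changes of low genes, with limma 3.58.1 in R 4.3.3 (lmFit, eBayes with a trend), Benjamini-Hochberg adjustment and a threshold of 0.05. There were 4 samples in the knockdown fit and 6 in the drug fit, which shared 1 spread. The procedure was run on simulated counts, with a spread set by hand and changes only in genes of at least 5 CPM. This does not cover low genes such as DGAT2, or the spread of these data. Members and lists were chosen with earlier results of these data known. From each list and each comparison with a control, up to 3 called genes with the largest absolute change and groups without overlap could be named, besides the 10 genes, PIKFYVE and the 3 genes most like each of the 3 members that changed most. Alternatives were a pseudocount of 0.1, no filter or a minimum of 5 CPM, quantile normalization, rescaling to an equal sum, no variance trend, a replicate block, the compared groups alone, an absolute log2 cutoff of 1.5 and each sample left out, extended to the other named lipid genes after seeing the data. With the commonest low value taken as 1 read, the median chi-square between replicates was 1.87 (sgNC) to 2.64 (Torin-1) times that expected from counting. This rests on approximate counts and does not tell separate cultures from technical repeats. Protein sequences, and promoters of LPIN3, DGAT1 and DGAT2, were not analysed here. Plots used matplotlib 3.10.9 (Python 3.11.15).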

Additional observations from a re-analysis of the deposited data

Results flagged for a closer look

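In the direct contrast of the drugs 4 of the 9 genes tested were called higher with apilimod and 1 lower. Over all genes 26.2% were called higher and 20.5% lower, so with 9 genes these counts are no result about the genes as a set. On the log2 scale ACSL1 (1.88), ACSL4 (1.43), LPIN1 (1.17) and ACSL3 (0.45) were higher with apilimod than with Torin-1 in limma's test, and PLIN2 (-0.39) was lower, in 2 of 2 samples each. The PLIN2 call was lost when Torin-1 replicate 2 (adjusted p = 0.161), apilimod replicate 1 (0.0635) or apilimod replicate 2 (0.101) was left out.

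For LPIN1 and DGAT2 the knockdown samples and the apilimod samples all moved in opposite directions, each against its own control. The share of all genes with this pattern was not computed, so the pair is no result about the genes followed here. LPIN1 was lower in the knockdown (log2 fold change -0.31) and higher with apilimod (1.05), both past the test. DGAT2, low at 1.21 to 2.19 CPM in these groups and their controls, had log2 fold changes of 0.3 in the knockdown and -0.15 with apilimod. Neither passed the test. The difference between knockdown and apilimod was not tested, and the tables were normalized separately.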

How the results depend on the processing

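Over the single genes followed here, 449 alternative values kept direction and side of the threshold, 15 changed sign, 8 no longer passed and 1 newly passed. ACSL1, ACSL4, LPIN1 and LPIN2 with apilimod and ACSL1, ACSL4, LPIN1, LPIN3 and PLIN2 in the knockdown kept their calls in all alternatives without the fold cutoff. Requiring an absolute log2 change of 1.5 as well left 141 genes in the knockdown, 62 with apilimod, 49 with Torin-1 and 175 between the drugs, and of the 9 genes 0, 1, 0 and 1. With no variance trend 3709 genes were called in the knockdown and 466 with apilimod, 13 of the other lipid genes in the knockdown and 2 of the 9 genes with Torin-1. With no filter on low values 565 genes were called with apilimod, and the other lipid genes called were 15 in the knockdown, 8 with Torin-1 and 17 between the drugs.

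With each sample left out in turn, the genes called with apilimod numbered 596 to 1315, and the other lipid genes called with Torin-1 numbered 8 to 15 (15 with all samples) and between the drugs 15 to 25. The lowest came without DMSO replicate 2 for apilimod and Torin-1, and without apilimod replicate 1 between the drugs (26 with all samples, 17 without Torin-1 replicate 1). For the other named lipid genes, an extension chosen after seeing the data, 404 values kept their call and 49 lost it. Changes of sign among the 9 genes were all in values that did not pass the test. LPIN2 in the knockdown went to -0.007 after quantile normalization and -0.018 after rescaling to an equal sum, and DGAT2 between the drugs to 0.101 after quantile normalization. Leaving out samples gave -0.055 to 0.204 for DGAT1 in the knockdown, -0.008 to 0.054 for LPIN2 in the knockdown, -0.018 to 0.098 for LPIN3 with apilimod, -0.124 to 0.272 for DGAT1 with apilimod, -0.309 to 0.087 for DGAT1 with Torin-1, -0.13 to 0.031 for LPIN3 with Torin-1 and -0.061 to 0.009 for DGAT2 between the drugs.

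Deviations of same-numbered samples were weakly correlated, at 0.037 in the knockdown and 0.0426 to 0.104 in the drug table. Weak correlations over many genes with counting noise cannot settle whether the numbers pair the samples. With a replicate block 1756 genes were called with apilimod, and LPIN1 with Torin-1 passed (adjusted p = 0.0239); no other call of the 9 genes changed with the block. ACSL5 was under the worth of 3 reads in every sample, and with 2 samples a group a leave-one-out arm holds a lone sample assumed to vary like the others.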

Other observations

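The 2 control groups, set side by side from separately normalized tables and with no test, stood close for some of these genes and apart for others. ACSL3 was at 215 CPM with sgNC and 214 CPM with DMSO, and PLIN2 at 14.4 and 14.3 CPM. LPIN1 was at 315 and 166 CPM, LPIN2 at 132 and 77.4 CPM, LPIN3 at 15.4 and 7.84 CPM, and GPAT4 at 456 and 100 CPM, in each case higher with sgNC. PLIN3, with means of 26.3 CPM with sgNC and 6.98 CPM with DMSO, was also far apart. Other genes were lower with sgNC than with DMSO, among them DGAT2 (1.35 and 1.95 CPM), GPAM (19.2 and 34.8 CPM) and SLC27A3 (9.7 and 23.5 CPM). These are examples, and the spread of this difference over all genes was not computed. Guide expression, selection, DMSO and the table of origin cannot be told apart here, and none of them was tested.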
